A study of Rhodotorula toruloides with 2 samples.

Results

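This account covers 9 genes of the red, lipid-storing yeast Rhodotorula toruloides (Rhodosporidium toruloides in the series' text) that are described as transporters or channels for sodium, calcium, zinc, copper, magnesium or chloride. They were picked by identifier from the deposited gene table through its KEGG and BLAST descriptions. All 9 are therefore among its 1402 listed genes by choice. The listed genes are 17.6% of 7970 tested genes, a number inferred from the deposited FDR and p-values. Wild-type cells of strain AS 2.1389 were grown in chemostats, continuous cultures of constant volume, in which the supply of inorganic phosphate (Pi) was limiting or replete. The series asks how phosphate limitation acts in a yeast that stores much lipid, and the total RNA came from 1 culture sample for each condition, as 1 library labelled as Pi-limited and 1 library labelled as Pi-replete. Without replicates no difference has a replicate check, and no test between the conditions was possible. The library totals were 5892590 counts for the library labelled as Pi-limited and 5641377 for the library labelled as Pi-replete. Values are bulk RNA, in which fewer cells of a kind and less RNA per cell cannot be told apart.

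Yeasts keep ions within narrow limits by pairing uptake proteins in the plasma membrane with pumps and exchangers that move the same ions out of the cell or into the vacuole, the Golgi and other compartments. P-type ATPases of the ENA kind expel sodium in fungi, and related pumps and cation exchangers clear calcium from the cytosol. Zinc enters through ZIP proteins and copper through CTR proteins. In Saccharomyces cerevisiae both kinds are known to be induced when their metal is scarce. Proteins of the CorA type carry magnesium, and chloride channels of the voltage-gated (CLC) family balance charge in acidic compartments.

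Transcripts described as zinc, copper and magnesium transporters were higher in the library labelled as Pi-limited. Those for sodium and calcium transport were higher in the library labelled as Pi-replete. The zinc transporter differed 119.5-fold and the sodium pump 87.7-fold, in opposite directions. Of 3 genes described as chloride channels, 1 was 100.04-fold higher in the library labelled as Pi-limited and the other 2 were lower there. In all, 4 of the 9 genes (44.4%) were higher in the library labelled as Pi-limited and 5 (55.6%) were lower, against 58.3% and 41.7% of all listed genes. The median log2 ratio of the 9 genes, labelled Pi-limited over labelled Pi-replete, was -1.03, and that of all listed genes was 1.10. The median of the 9 is the ratio of RHTO_01441 alone, a gene close to the authors' 2-fold limit. Folds compare counts divided by library totals, and their 95% intervals are exact and cover counting error only.

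The directions rest on labels that the phosphate genes ran against. Of 12 listed genes for phosphate uptake and release, which fungi are known to induce when Pi is short, 11 were lower in the library labelled as Pi-limited. Of all listed genes, 41.7% were lower there. The column of that library also carries the word control in its name. No library was moved to another group, and each direction is given by the label a library carries.

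**Figure D1:**
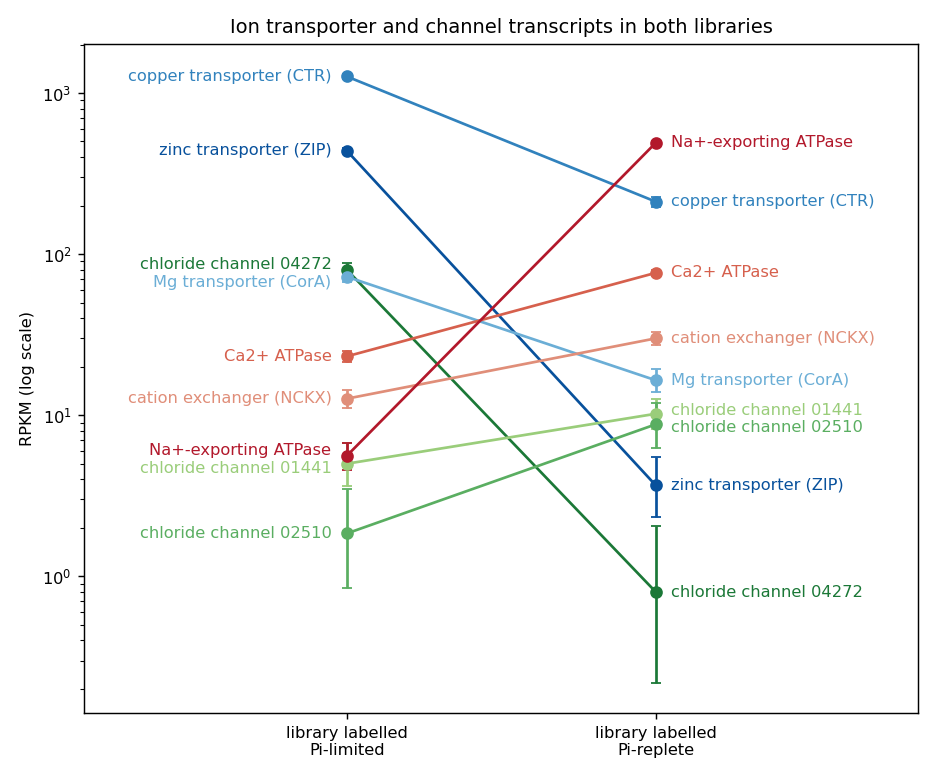
Level of each of the 9 transcripts in RPKM (log scale) in the library labelled as Pi-limited (left) and the library labelled as Pi-replete (right). Points are single libraries, bars are exact Poisson 95% intervals of the counts, and the lines of the sodium pump and the zinc transporter cross. On the Pi-limited side the pump is at 5.60 and the zinc transporter at 438 RPKM, and on the Pi-replete side they are at 491 and 3.66 RPKM.

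The sodium pump RHTO_03868 is described by KEGG as a sodium-exporting ATPase and also as a calcium-transporting ATPase, with a sodium P-type ATPase of another fungus as its best hit. Its coding length of 3273 bases holds 1090 codons before the stop. It had 108 counts in the library labelled as Pi-limited and 9071 in the library labelled as Pi-replete, which is 5.60 against 491 RPKM (reads normalised for gene length and sequencing depth). The transcript was thus among the scarcer listed ones in the library labelled as Pi-limited, at rank 1152 of 1402 by RPKM, and among the most abundant in the library labelled as Pi-replete, at rank 50. The difference was 87.7-fold (72.6 to 107). By size of the ratio it stood at rank 22 of the 585 genes that were lower in the library labelled as Pi-limited. Several genes ranked above it had 0 counts in that library, where the deposited RPKM is then set to 0.01. It took 0.161% of all counts in the library labelled as Pi-replete.

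A second ATPase, RHTO_01994, is described as a calcium-transporting ATPase by both KEGG and BLAST. Such pumps move calcium from the cytosol into the vacuole or the secretory pathway. Its coding length was 4158 bases, the longest of the 9. It had 568 counts in the library labelled as Pi-limited and 1795 in the library labelled as Pi-replete, or 23.2 against 76.5 RPKM. That is 3.30-fold (3.00 to 3.63) higher in the library labelled as Pi-replete. Both ATPases carry the same KEGG number for calcium transport, but their order differed between libraries: the RPKM of RHTO_03868 was 0.242 times that of RHTO_01994 in the library labelled as Pi-limited and 6.42 times in the library labelled as Pi-replete.

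The cation exchanger RHTO_00523 matches the KEGG entry of solute carrier family 24 member 6, a sodium/potassium/calcium exchanger family that in mammals includes a mitochondrial sodium/calcium exchanger. It had 224 counts in the library labelled as Pi-limited and 508 in the library labelled as Pi-replete, or 12.7 against 30.0 RPKM. The transcript was 2.37-fold (2.02 to 2.78) more abundant in the library labelled as Pi-replete. With totals over the listed genes made equal, its log2 ratio of -1.24 became -0.93, which lies under 2-fold. The 3 sodium and calcium genes together took 153 CPM (counts relative to all counts of the library) in the library labelled as Pi-limited and 2016 CPM in the library labelled as Pi-replete, mostly from the sodium pump.

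The zinc transporter RHTO_03852 belongs by its KEGG entry to solute carrier family 39, the ZIP proteins, which bring zinc into the cytosol. It had 2871 counts in the library labelled as Pi-limited and 23 in the library labelled as Pi-replete, or 438 against 3.66 RPKM. The fold difference was 119.5 (79.5 to 189), with the higher level in the library labelled as Pi-limited, rank 5 of the 817 genes that were higher there. The genes ranked above it all had 0 counts in the library labelled as Pi-replete, where the deposited RPKM is then set to 0.01. By level it stood at rank 44 among listed genes in the library labelled as Pi-limited and at rank 1196 in the library labelled as Pi-replete.

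A second listed gene with the same KEGG entry, RHTO_02476, had the same direction and a smaller ratio. It had 417 counts in the library labelled as Pi-limited and 152 in the library labelled as Pi-replete, a 2.63-fold difference (2.18 to 3.18). The pair changed places: the RPKM of RHTO_03852 was 6.83 times that of RHTO_02476 in the library labelled as Pi-limited, and 0.150 times in the library labelled as Pi-replete. This gene was picked out after its values were seen.

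The copper transporter RHTO_02838 belongs to the CTR family, small membrane proteins that take up reduced copper, and its coding length of 591 bases was the shortest of the 9. It had 4410 counts in the library labelled as Pi-limited and 705 in the library labelled as Pi-replete. At 1266 RPKM it was the most abundant of the 9 in the library labelled as Pi-limited (rank 16 of all listed genes), and at 211 RPKM the second in the library labelled as Pi-replete (rank 117). The difference was 5.99-fold (5.53 to 6.49). The interval is narrow because the counts are high in both libraries.

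The magnesium transporter RHTO_01650, whose best hit is a CorA-like protein, had 647 counts in the library labelled as Pi-limited and 141 in the library labelled as Pi-replete. Its levels were 72.3 against 16.5 RPKM, a 4.39-fold difference (3.66 to 5.31). Together the zinc, copper and magnesium genes took 1345 CPM in the library labelled as Pi-limited and 154 CPM in the library labelled as Pi-replete. The interval of the copper transporter's fold lay above that of the magnesium transporter's. Centred on the median of the listed genes, their log2 ratios of 2.58 and 2.14 became 1.48 and 1.04.

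**Figure D2:**
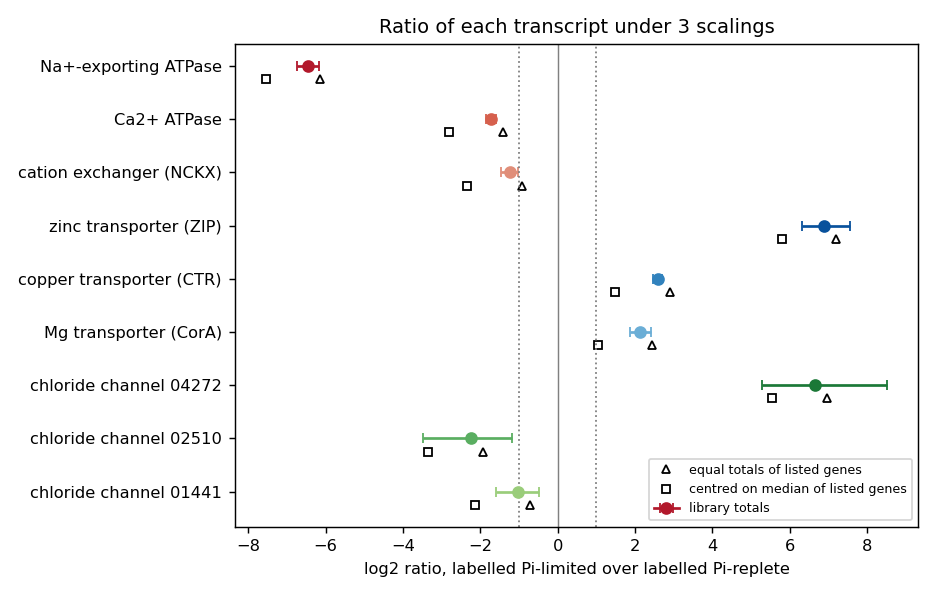
Log2 ratio of each of the 9 transcripts, labelled Pi-limited over labelled Pi-replete, with exact 95% intervals of counting error (coloured points) and after 2 other scalings (open symbols). Dotted lines mark the authors' 2-fold limit. The shifts are too small to change a sign, and 2 genes, the cation exchanger and the chloride channel RHTO_01441, fall inside the limit with equal totals of the listed genes.

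The 3 genes described as chloride channels divided. RHTO_04272, whose best hit is a voltage-gated chloride channel domain protein, had 418 counts in the library labelled as Pi-limited and 4 in the library labelled as Pi-replete, or 79.9 against 0.798 RPKM. It was 100.04-fold higher in the library labelled as Pi-limited, and the 4 counts leave a wide interval of 38.8 to 369. It ranked just behind the zinc transporter, at 6 of 817.

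RHTO_02510, described as a putative chloride channel, had 9 counts in the library labelled as Pi-limited and 41 in the library labelled as Pi-replete, or 1.84 against 8.78 RPKM. The difference was 4.76-fold (2.28 to 11.1), and the counts were the lowest of the 9 genes taken over both libraries. RHTO_01441, described as a putative chloride channel protein k, had 44 counts in the library labelled as Pi-limited and 86 in the library labelled as Pi-replete, a 2.04-fold difference (1.40 to 3.01). Its log2 ratio of -1.03 lay close to the authors' limit, and the authors' deposited table gives it an FDR of 1.95e-04. The authors' FDR rests on 1 library per condition and so carries no spread between cultures. With equal totals of the listed genes its ratio was -0.72, under 2-fold.

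The chloride channels also exchanged places in level. RHTO_04272 had 43.3 times the RPKM of RHTO_02510 in the library labelled as Pi-limited and 0.0910 times in the library labelled as Pi-replete. None of the 3 has a KEGG description, so their naming rests on a single best hit each. Their coding lengths were 888 bases (RHTO_04272), 828 bases (RHTO_02510) and 1494 bases (RHTO_01441). Whether each codes for a full-length channel was not tested. Another listed gene, RHTO_01721, has a best hit of the same name as that of RHTO_01441, chloride channel protein k. KEGG describes RHTO_01721 as a heat shock or SKN7-type transcription regulator, and it is not among the 9. It had 211 counts in the library labelled as Pi-limited and 8 in the library labelled as Pi-replete (25.3-fold, 12.6 to 59.3).

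In the library labelled as Pi-limited the order by RPKM was copper transporter, zinc transporter, RHTO_04272, magnesium transporter, calcium ATPase, cation exchanger, sodium pump, RHTO_01441 and RHTO_02510. The counting intervals of neighbours in that order overlapped for RHTO_04272 and the magnesium transporter and for the sodium pump and RHTO_01441. In the library labelled as Pi-replete it was sodium pump, copper transporter, calcium ATPase, cation exchanger, magnesium transporter, RHTO_01441, RHTO_02510, zinc transporter and RHTO_04272. There the intervals overlapped only for RHTO_01441 and RHTO_02510. The zinc transporter and RHTO_04272 thus stood just behind the copper transporter in the library labelled as Pi-limited and last in the library labelled as Pi-replete.

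**Figure D3:**
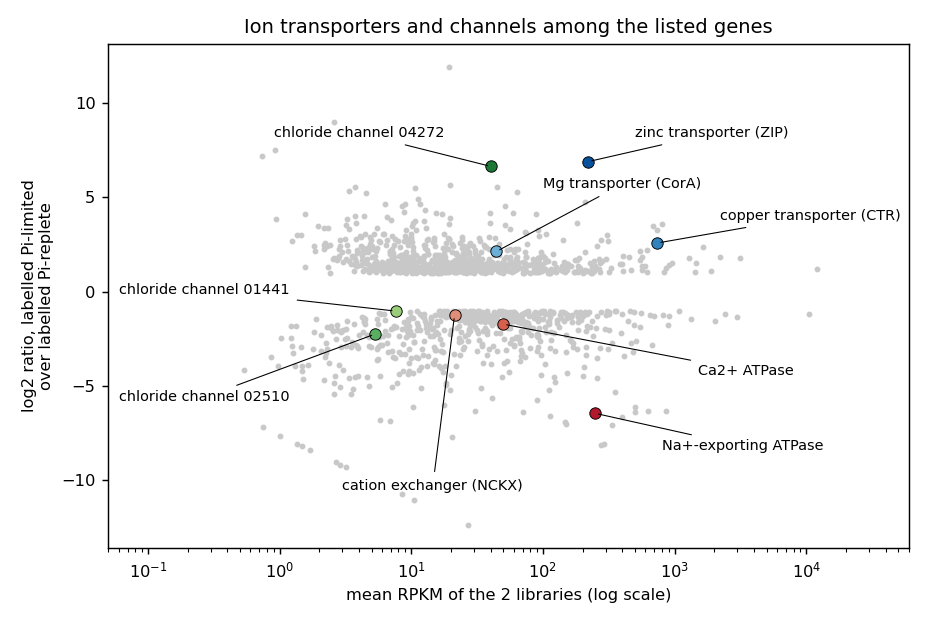
Log2 ratio, labelled Pi-limited over labelled Pi-replete, against the mean RPKM of the 2 libraries (log scale) for the 1402 listed genes (grey) and the 9 ion transporters and channels (coloured). The empty band around 0 is the authors' 2-fold filter, and the zinc transporter, RHTO_04272 and the sodium pump lie at its far sides.

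Large ratios were frequent among the 9 genes. At least 4-fold differences were seen for 6 of 9 (66.7%), against 33.8% of listed genes. In the library labelled as Pi-limited, 4 of 9 were at least 4-fold higher, against 14.1% of listed genes, and 2 of 9 were at least 4-fold lower, against 19.8%. At least 64-fold differences were seen for 3 of 9 (33.3%), against 2.57% of listed genes. With 9 genes, chosen when their ratios were already known, these shares are a description only. The median absolute log2 ratio was 2.25 for the 9 genes and 1.57 for all listed genes. Their median level, averaged over both libraries, was 67.4 CPM, against 27.9 CPM for all listed genes.

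Likeness to the zinc transporter and the sodium pump was taken as the nearest log2 ratio over the 2 libraries, among listed genes outside the 9 that carry a description and reach 50 counts in either library. Genes without a description or with fewer counts can lie nearer. Within that limit, the genes most like the zinc transporter, at 6.90, were RHTO_07982, a multidrug transporter of the major facilitator class (5.64), and RHTO_01430, a PAS-domain protein kinase (5.58). Those most like the sodium pump, at -6.46, were RHTO_07643, with a seryl-tRNA synthetase as its best hit (-6.34), and the alkaline phosphatase RHTO_03053 (-6.33). Likeness over 2 libraries is likeness in 1 ratio. In the gene order of the RHOziaDV1.0 assembly of strain NP11, 3 of the 18 immediate neighbours of the 9 genes were listed (16.7%, against 21% for all listed genes). They flank the sodium pump, the calcium ATPase and the magnesium transporter, and the first pair share the direction of their neighbour.

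Other genes of inorganic ion transport were searched for by wording. The search found 15 listed genes, 10 higher and 5 lower in the library labelled as Pi-limited, with a median log2 ratio of 1.29. Of all listed genes, 58.3% were higher there. After the matches were seen, 9 of the 15 were set apart. These were 4 nucleobase:cation symporters, an amino acid transporter, a sulfate permease, RHTO_01721, and RHTO_02909 and RHTO_02910, which share a potassium channel beta subunit as best hit. The 3 of the 15 with the largest ratios were among those 9: RHTO_01721 and the nucleobase:cation symporters RHTO_00866 (11.9-fold, 8.04 to 18.4) and RHTO_06782 (6.91-fold, 3.43 to 15.8), which take up nucleobases and were higher in the library labelled as Pi-limited. Without those 9 genes, 2 were higher and 4 lower, and the median log2 ratio turned from 1.29 to -1.21. With the sulfate permease, RHTO_02909 and RHTO_02910 kept, 4 were higher and 5 lower, with a median of -1.20.

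Calcium:proton antiporters, which load calcium into the vacuole, made up 4 of the 6 genes that were not set apart. RHTO_04238 had 101 counts in the library labelled as Pi-limited and 658 in the library labelled as Pi-replete, 6.81-fold (5.51 to 8.48) higher in the library labelled as Pi-replete. RHTO_03173 (3.05-fold, 2.55 to 3.65) and RHTO_00204 (2.31-fold, 1.55 to 3.51) had the same direction, which is also that of the calcium ATPase and the cation exchanger. The other one, RHTO_04608, had the other direction, with 239 counts in the library labelled as Pi-limited and 37 in the library labelled as Pi-replete (6.18-fold, 4.36 to 8.997). A monovalent cation:proton antiporter, RHTO_07452, a family that exchanges sodium or potassium for protons, was 2.30-fold (2.09 to 2.53) more abundant in the library labelled as Pi-replete, the direction of the sodium pump. The antiporters other than RHTO_04238 and RHTO_04608 were at most 3.05-fold apart. These genes were picked out after their values were seen.

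Of 6 listed genes matched as calcium signalling, 5 were higher in the library labelled as Pi-limited, where 58.3% of all listed genes were higher. However, 4 of the 6 are kinases that matched by the name of their kinase class. Among those that reach 50 counts in either library, the 3 with the largest ratios were RHTO_01430 (47.7-fold, 26.4 to 96.1), the related PAS-domain kinase RHTO_01719 (6.76-fold, 3.99 to 12.2) and calmodulin RHTO_00485, the calcium sensor of the cytosol. Calmodulin had 179 counts in the library labelled as Pi-limited and 61 in the library labelled as Pi-replete, a 2.81-fold difference (2.09 to 3.82). A calmodulin-dependent kinase, RHTO_06256, was 2.08-fold (1.53 to 2.85) more abundant in the library labelled as Pi-limited. Centred on the median of the listed genes, the log2 ratio of calmodulin was 0.39, and that of RHTO_06256 was -0.041. That median, 1.10, lies just past the authors' 2-fold limit, so centring takes any weakly higher gene to near no difference. The centred values therefore do not settle the direction of either gene. No listed gene matched the proton pumps.

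Proteins that use or carry copper or zinc gave 3 higher and 3 lower, beside 58.3% and 41.7% of all listed genes. A copper chaperone, RHTO_06789, a small protein that hands copper on inside the cell, had 214 counts in the library labelled as Pi-limited and 89 in the library labelled as Pi-replete (2.30-fold, 1.79 to 2.98). COX11 (RHTO_02091), which delivers copper to cytochrome oxidase, was 2.54-fold (2.18 to 2.98) more abundant in the library labelled as Pi-limited. Both had the direction of the copper transporter. The other higher gene, RHTO_02703 (2.53-fold, 2.05 to 3.14), is described as a zinc-finger protein and matched by wording only. The 3 lower genes were enzymes with few counts in the library labelled as Pi-limited. Carbonic anhydrase RHTO_01204, a zinc enzyme, had 6 counts there and 56 in the library labelled as Pi-replete (9.75-fold, 4.21 to 27.7). In the same order, the copper amine oxidase RHTO_06618 had 18 and 134 counts (7.78-fold, 4.74 to 13.5). The multicopper oxidase RHTO_07161 had 14 and 45 (3.36-fold, 1.81 to 6.62). After centring on the median of the listed genes, 0 of the 3 higher genes stayed at least 2-fold apart. Centring does this to any higher gene that is only just past the authors' limit.

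**Figure D4:**
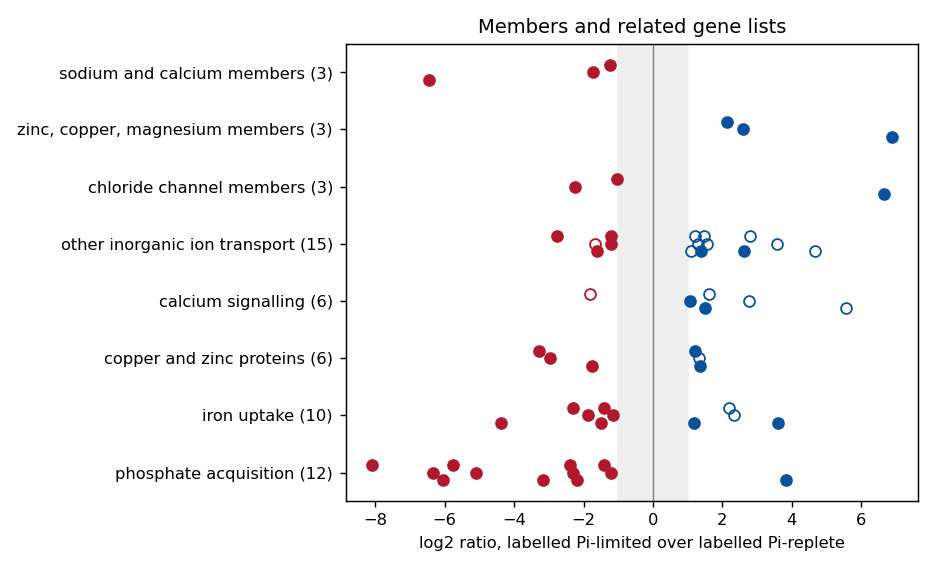
Log2 ratio, labelled Pi-limited over labelled Pi-replete, of the 9 genes by ion and of the related lists, with the number of genes in brackets. Blue points are higher and red points lower in the library labelled as Pi-limited, open points matched a list by wording and were set apart, and the grey band is the range removed by the authors' filter. The zinc, copper and magnesium genes lie on the right, and the sodium and calcium genes and 11 of 12 phosphate genes on the left.

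Iron uptake genes, set beside the other metals, did not share 1 direction. Of 10 matches, 4 were higher and 6 were lower for the library labelled as Pi-limited, beside 58.3% and 41.7% of all listed genes. Of the higher ones, 2, RHTO_01725 (5.09-fold, 3.90 to 6.73) and RHTO_02519, are oxidoreductases matched by letters inside a word. Ferric reductases reduce iron and, in S. cerevisiae, copper at the cell surface before uptake. RHTO_06556, of this class, had 16711 counts in the library labelled as Pi-limited and 1328 in the library labelled as Pi-replete (12.05-fold, 11.4 to 12.7). The other listed genes with that KEGG entry, RHTO_00765 (2.22-fold, 1.79 to 2.76) and RHTO_00010 (4.96-fold, 2.28 to 12.3), were higher in the library labelled as Pi-replete. The siderophore transporter RHTO_07321 had 8 counts in the library labelled as Pi-limited and 159 in the library labelled as Pi-replete (20.8-fold, 10.3 to 48.9). All 3 listed genes with its KEGG entry were lower in the library labelled as Pi-limited. RHTO_02906, a siderophore iron transporter by best hit only, was higher there, with 64 counts against 27 (2.27-fold, 1.43 to 3.70).

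Phosphate enters fungi partly together with sodium, so the sodium:Pi symporter RHTO_01284 is set beside the sodium pump. A link between pump and symporter was not tested. The symporter had 2.12 RPKM in the library labelled as Pi-limited and 585 RPKM in the library labelled as Pi-replete, next to 5.60 and 491 RPKM for the pump. Both were among the scarcer listed transcripts in the library labelled as Pi-limited and reached similar levels in the library labelled as Pi-replete. The other phosphate genes with the largest ratios were the alkaline phosphatase RHTO_03053 and RHTO_05069, described as a phosphate transporter and a T2 ribonuclease, at log2 ratios of -6.33 and -6.03. The direction was not particular to the sodium:Pi symporter. Phosphate transporters RHTO_06822 and RHTO_01549, whose KEGG entry does not name sodium, were at -5.77 and -5.09. Of the 12 phosphate genes, 1 went the other way.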

How the data were processed

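The authors deposited 1 table of listed genes. Per the file headers, its columns are the count and RPKM of both libraries, the log2 ratio of RPKM (Pi-replete over Pi-limited), a p-value and an FDR, the gene length, and GO, KEGG and BLAST descriptions. The submitters' processing notes name Cufflinks and DESeq, with no role. The aligner, the genome build and any use of strand were not given in the sources used here, so genes that overlap or lie antisense may share reads. Whether near-identical copies share reads is not known, since sequences were not compared.

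By the values, the authors kept genes with an absolute log2 ratio from 1 upward and an FDR up to 0.001. The number of tested genes, 7970, was inferred from the ratio of deposited FDR to p-value. This assumes that each FDR is the p-value times the number of tests divided by the gene's rank. Of the 7970, 17.6% were listed. Genes under 2-fold are not analysed here. Library totals were recovered as count divided by length and RPKM, and gave 1 value per library. The log2 ratio was recomputed as Pi-limited over Pi-replete. The listed genes held 13.28% of all counts in the library labelled as Pi-limited and 16.46% in the library labelled as Pi-replete. Deposited lengths were multiples of 3 for all 9 genes and for 99.4% of the table, so they are coding lengths. Folds have exact 95% intervals (Clopper-Pearson limits of the share of the summed counts) and RPKM values exact Poisson intervals, which cover counting error only. The interval was tested on simulated data. No p-value was computed.

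The members and lists were chosen with earlier results of these data known. Named were all 9 members, the 3 genes of each of 6 lists that had 50 or more counts and differed most, and the 2 genes nearest in ratio to the member with the largest ratio in each direction. Others are said to be picked after their values were seen, which holds for all further genes of the lists. All 9 identifiers matched the RefSeq gene table, which was used only for gene order. Alternatives were 2 other scalings, 0.5 counts added, RPKM with a pseudocount of 1, at least 100 counts, and an FDR of at most 1e-10. Python 3.11.15 with scipy 1.17.1 and pandas 2.3.3 was used.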

Additional observations from a re-analysis of the deposited data

How the results depend on the processing

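No paired analysis was possible because each condition has 1 library, and no replicate could be left out. None of the 9 log2 ratios changed sign under the 4 alternatives run, but this was no check. The 2 shifts, 0.31 and -1.10, were smaller than every ratio they could turn, and the pseudocounts only draw ratios inward. Adding 0.5 counts or using RPKM with a pseudocount of 1 kept all 9 within their counting intervals. Equal totals of the listed genes shifted every log2 ratio by 0.31 and centring on their median by -1.10. Outside their intervals with equal totals were RHTO_00523 (-0.93), RHTO_01650 (2.45), RHTO_01994 (-1.41), RHTO_02838 (2.89) and RHTO_03868 (-6.14). With centring these were -2.34, 1.04, -2.82, 1.48 and -7.55, and RHTO_01441 was at -2.13 and RHTO_03852 at 5.80. The number of the 9 genes lower in the library labelled as Pi-limited became 3 with equal totals, with at least 100 counts and at an FDR of at most 1e-10, in place of 5.

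Of the other ion transport genes, the 10 higher became 4 with centring and 2 without genes matched by wording only, or 4 with the sulfate permease and the potassium channel subunit genes kept (alternatives chosen after seeing the data), and the 5 lower became 3 with equal totals. The 5 higher calcium signalling genes became 2 with centring, 3 at the FDR limit of 1e-10 and 2 when wording matches were left out, and the 1 lower became 0 with at least 100 counts, at that FDR, and without wording matches. Of the copper and zinc proteins, the 3 higher became 0 with centring and the 3 lower became 1 with at least 100 counts. The 4 higher iron genes became 2 without wording matches. The 1 higher phosphate gene became 0 with at least 100 counts and at an FDR of at most 1e-10. Of all listed genes, the 817 higher became 182 with centring and 496 at an FDR of at most 1e-10. These counts fall because fewer genes pass, since a shift can only remove genes from a table already filtered at 2-fold. Depth limits RHTO_04272 and RHTO_02510, with 4 and 9 counts in the library where each is lower.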
